A study of Mus musculus with 9 samples.

Results

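The 8 genes described here encode molecules that bring leukocytes to a vessel wall and hold them there: the endothelial ligands Icam1 and Vcam1, the selectins Sele and Selp, the adhesion receptor Cd44, the integrin subunits Itgb2 and Itgal, and the membrane-bound chemokine Cx3cl1. They were taken by name, as every probe that the array files assign to 1 of these 8 symbols, which gave 17 of 56605 probes and 8 of the 24150 genes and unnamed features tested. Their RNA was measured in isolated glomeruli, the filtering units of the kidney, of male BTBR mice at 22 weeks of age. BTBR ob/ob mice given enarodustat in the food, BTBR ob/ob mice on vehicle food and BTBR wild-type mice on vehicle food were compared, with 3 samples in each group and 18 weeks of treatment. Enarodustat blocks the prolyl hydroxylase enzymes whose action leads to the breakdown of hypoxia-inducible factor, and ob/ob mice lack functional leptin in every tissue and become obese and diabetic on the BTBR background. No wild-type mice on enarodustat were analysed here, and the labels do not say whether a sample is 1 mouse or a pool, so p-values measure the spread between these samples, which may be technical.

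Leukocytes leave the blood in steps. Selectins on activated endothelium catch passing cells through sugar-bearing ligands, chemokines such as CX3CL1 activate them, and leukocyte integrins then bind ICAM-1 and VCAM-1 firmly enough for the cell to stop and cross. The glomerulus is unusual in that this takes place in capillaries, where ICAM-1 and the integrins of the beta-2 family are the pair best known for holding leukocytes, and where quiescent endothelium carries little selectin.

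Each sample was hybridised to its own single-colour Agilent array, 9 in all. The 75th percentile of the processed signal lay between 210.5 and 325.4 units, 62.3% to 68.3% of probes were well above background, and no spot was saturated. Arrays sharing a group correlated over the tested features at 0.973 to 0.991, and arrays not sharing one at 0.953 to 0.987. Each value given is a log2 signal minus that of the 75th percentile on the same array. Changes are log2 differences ± SE from 1 limma fit of all 9 arrays, and a gene counts as called at an adjusted p under 0.05 after Benjamini-Hochberg adjustment over all features. A probe's level cannot be set against another probe's, so levels are compared between groups only. Markers of glomerular cells were well above background on every array: the 6 podocyte markers summed to 400.6 to 512 times the 75th percentile on enarodustat arrays, 505 to 615 on ob/ob vehicle arrays and 697 to 820 on wild-type arrays, and the 9 endothelial markers summed to 641 to 699 times the 75th percentile on enarodustat arrays, 647 to 701 on ob/ob vehicle arrays and 547 to 610 on wild-type arrays. Proximal tubule markers stood apart on wild-type replicate 3, where their sum was 499 times the percentile, against 48.6 to 51.8 on the other wild-type arrays. On enarodustat replicate 2 it was 163, against 27.1 and 26.8 on the other enarodustat arrays. On ob/ob vehicle arrays it was 11.9 to 39.9. With 3 arrays a group, their number sets the precision. In whole glomeruli, fewer cells of a type and less RNA per cell cannot be told apart.

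The probes behind the results were 60 bases long, and the first 30 bases of those that matter most are printed from the array files, 5′ to 3′, because several genes have probes that gave different answers. All are in mm9 coordinates. The probes printed first stand for Icam1 (chr9:20833186-20833245, plus strand), Sele (chr1:165987726-165987785, plus), Cd44 (chr2:102652758-102652817, minus), Itgb2 (chr10:77027978-77028037, plus) and Itgal (chr7:134477160-134477219, plus). The next are a further Icam1 probe (chr9:20832290-20832349) and a further Cd44 probe (chr2:102654278-102654337), both at a position upstream of the probe that stands for the gene. The Cd44 probes were designed on 1 transcript record and the Icam1 probes on different ones. The last are a pair of Itgal probes (chr7:134474711-134474767 and chr7:134474706-134474766) designed on a cDNA sequence other than the RefSeq transcript. Capitals mark what that pair has in common, 56 shared bases of which the first are shown, so they read the same site and are not independent. Exon and intron positions in mm9 were not analysed here.
Icam1 A_51_P408506: ctgtgggagggtaagcaaccctcccagcac
Sele A_51_P455326: gagtatttaacggtagctggttttaagaca
Cd44 A_55_P2912261: atattaactctataaaataaggctgtccct
Itgb2 A_51_P262208: aaagctagagcatgagttatcataatcaag
Itgal A_51_P466378: acttgagagccctggctctgaccagcttca
Icam1 A_52_P613241: cctcttatgtttataaccgccagagaaaga
Cd44 A_55_P2166501: gacgagacccggaatctgcagagtgtggac
Itgal A_55_P2184606: gtcCCACTGCTCTGTCTTTTATTAACAATG
Itgal A_55_P2935675: ctgtCCACTGCTCTGTCTTTTATTAACAAT

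Of the 17 probes, 14 stood well above background throughout 1 or more groups and were kept, which left all 8 genes with at least 1 probe. The 3 others were not well above background on any array: a Cd44 probe at chr2:102677971-102678030 and the Selp probes at chr1:166071558-166071617 and chr1:166074040-166074099. Each gene is represented by its kept probe with the highest mean, and that probe was well above background on all 9 arrays for all 8 genes.

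In ob/ob vehicle glomeruli 6 of the 8 genes rose over wild-type vehicle glomeruli, namely Sele, Itgb2, Cd44, Icam1, Itgal and Cx3cl1, by 1.62-fold to 8.33-fold. The highest fold, that of Sele, was set against dim wild-type signals and is uncertain in size. Of all features, 4.89% were called higher in that comparison and 7.55% in either direction. Selp and Vcam1 did not pass the test. The median log2 change was 1.196 over the 8 genes and 0.016 over all features. Enarodustat against ob/ob vehicle gave no call among the 8 genes with limma and none among all features (0%), while 3 of the 8 genes and 1691 features (7% of all) had an unadjusted p under 0.05. The median log2 change there was -0.25 over the 8 genes and -0.026 over all features. In enarodustat over wild-type glomeruli 4 of the 8 genes rose (Itgb2, Icam1, Cd44 and Itgal), where 6.1% of all features were called higher and 10.2% in either direction. The comparisons share arrays, so their changes are not independent of each other.

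**Figure D1:**
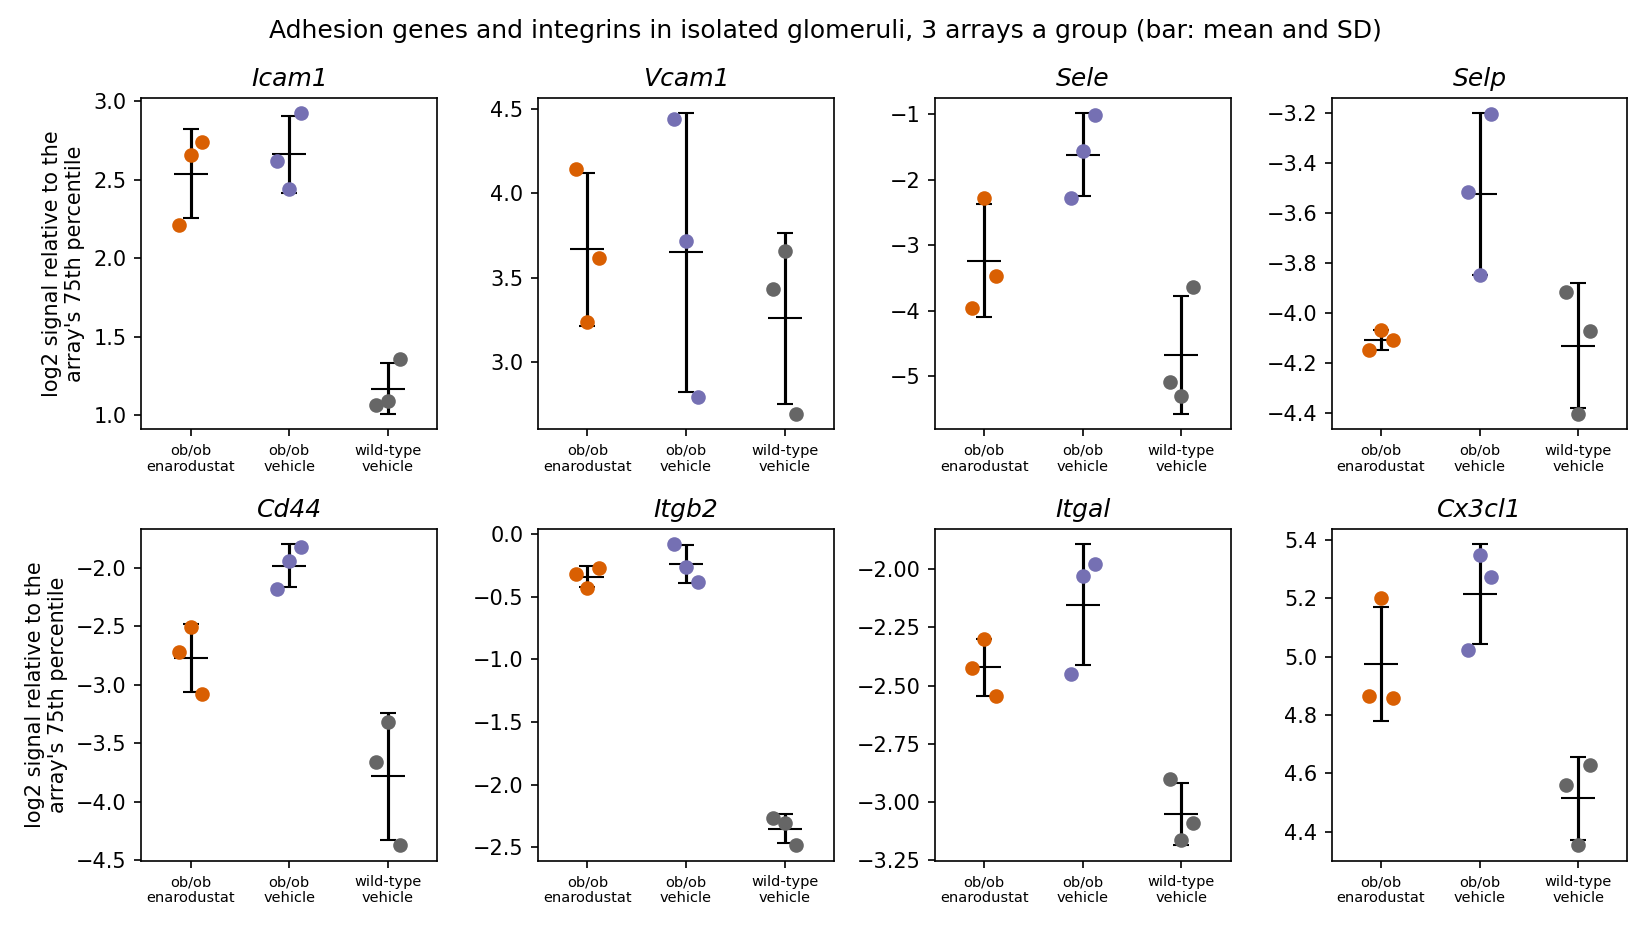
Log2 signal relative to the array's 75th percentile (vertical axis) of the 8 genes on each of the 9 arrays, by group. Points are arrays, the bar and whiskers are the mean and SD of 3 arrays. Itgb2 and Icam1 lay high in both ob/ob groups, Sele, Selp and Cd44 were lower on enarodustat than on vehicle arrays of ob/ob mice, and Vcam1 overlapped in all groups.

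Icam1 encodes the endothelial immunoglobulin-family ligand of the beta-2 integrins. It measured 2.21, 2.66 and 2.74 on enarodustat arrays, 2.62, 2.44 and 2.93 on ob/ob vehicle arrays, and 1.06, 1.09 and 1.36 on wild-type arrays. Both ob/ob groups lay wholly above wild type and overlapped each other. The rise was 2.82-fold in ob/ob vehicle glomeruli over wild type (log2 change 1.49 ± 0.18, limma adjusted p = 0.00387) and 2.59-fold in enarodustat glomeruli over wild type (1.37 ± 0.18, adjusted p = 0.00502). Between enarodustat and vehicle in ob/ob mice the log2 difference was -0.12, with a 95% interval of -0.54 to 0.30 (adjusted p = 0.887), so a 2-fold fall lies outside the interval. The further Icam1 probe printed above gave log2 changes of 1.54 ± 0.17 for ob/ob vehicle and 1.34 ± 0.17 for enarodustat, both over wild type, and both called when each probe was tested on its own.

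Vcam1, the ligand of the integrin VLA-4, was spread widely within groups. It measured 4.15, 3.24 and 3.61 on enarodustat arrays, 4.44, 3.72 and 2.79 on ob/ob vehicle arrays, and 3.43, 3.66 and 2.69 on wild-type arrays. The lowest values of ob/ob vehicle and wild type nearly coincided, and all groups overlapped. The log2 change of ob/ob vehicle over wild type was 0.39 ± 0.43 with a 95% interval of -0.60 to 1.37 (adjusted p = 0.636), which holds both no change and a rise as large as that of Cx3cl1. Enarodustat differed from ob/ob vehicle by 0.017 (95% interval -0.97 to 1.00, adjusted p = 0.994). A further Vcam1 probe, at chr3:115828953-115829012, gave 0.68 ± 0.29 for ob/ob vehicle over wild type (adjusted p = 0.209 as its own feature). Its values were 0.41, -0.12 and 0.070 on enarodustat arrays, 0.60, 0.26 and -0.47 on ob/ob vehicle arrays, and -0.46, -0.22 and -0.95 on wild-type arrays.

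Sele encodes E-selectin, which endothelium makes after activation. It measured -3.96, -2.28 and -3.46 on enarodustat arrays, -2.28, -1.56 and -1.01 on ob/ob vehicle arrays, and -5.08, -5.30 and -3.64 on wild-type arrays. Its change had the largest SE among the 8 genes, and wild-type replicate 3 lay well above the other wild-type arrays. Ob/ob vehicle exceeded wild type 8.33-fold (log2 change 3.06 ± 0.56, adjusted p = 0.0144), the largest change among the 8 genes on this scale. Without wild-type replicate 2 the change was 2.74 and the adjusted p = 0.0558, which ends the call. With normexp background correction and quantile normalization the change was 1.22 (adjusted p = 0.0114), below those of Itgb2 (1.43) and Icam1 (1.35) under the same setting. Enarodustat lay 1.62 ± 0.56 lower than ob/ob vehicle on the log2 scale (95% interval -2.90 to -0.34, unadjusted p = 0.0187, adjusted p = 0.709), and -0.83 with normexp and quantile normalization. The groups did not overlap, but only just: the highest enarodustat value and the lowest ob/ob vehicle value both round to -2.28. Enarodustat against wild type gave 1.44 ± 0.56 (adjusted p = 0.142), and those groups overlapped; with array weights it was 1.75 and called (adjusted p = 0.0271).

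Selp encodes P-selectin, which endothelium and platelets store and put on their surface within minutes. It measured -4.15, -4.07 and -4.11 on enarodustat arrays, -3.52, -3.85 and -3.21 on ob/ob vehicle arrays, and -3.92, -4.40 and -4.07 on wild-type arrays. Ob/ob vehicle lay above both other groups on every array, and those other groups overlapped. The log2 change was 0.61 ± 0.18 for ob/ob vehicle over wild type (adjusted p = 0.0863) and -0.59 ± 0.18 for enarodustat over ob/ob vehicle (unadjusted p = 0.0120, adjusted p = 0.708, and -0.20 with normexp and quantile normalization). Enarodustat differed from wild type by 0.021 (95% interval -0.40 to 0.44, adjusted p = 0.957). These are dim signals, with a mean processed signal of 14.1, 25.5 and 16.3 units in enarodustat, ob/ob vehicle and wild-type arrays, and a weighting of arrays by quality turned the difference of ob/ob vehicle from wild type into a call (0.74, adjusted p = 0.0201), while normexp gave 0.18 (adjusted p = 0.182). The 4 tested platelet markers followed Selp only in part. They summed to 0.946 to 1.60 times the 75th percentile on enarodustat arrays, 1.06 to 4.46 on ob/ob vehicle arrays and 0.446 to 0.573 on wild-type arrays, so that both ob/ob groups lay above wild type, whereas Selp on enarodustat arrays overlapped wild type. Pf4 alone was called, in ob/ob vehicle over wild type (2.63 ± 0.43, adjusted p = 0.00902) and in enarodustat over wild type (1.66 ± 0.43, adjusted p = 0.0440). Of all features, 4.89% and 6.1% were called higher there. Ppbp and Gp9 gave 2.59 ± 0.67 and 1.78 ± 0.65 in ob/ob vehicle over wild type (adjusted p = 0.0543 and 0.142). Itga2b, well above background on 2 of 3 ob/ob vehicle arrays, gave -0.026 in ob/ob vehicle over wild type. Enarodustat against ob/ob vehicle gave -1.70 for Ppbp, -0.98 for Pf4, -0.82 for Gp9 and -0.19 for Itga2b, none called. Ppbp on enarodustat arrays overlapped wild type, as Selp did. Gp1ba was not well above background on all arrays of any group. Their part in the Selp values was not tested.

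Cx3cl1 encodes fractalkine, a chemokine tethered to the cell surface that both attracts and holds cells bearing CX3CR1. It measured 4.87, 5.20 and 4.86 on enarodustat arrays, 5.02, 5.35 and 5.27 on ob/ob vehicle arrays, and 4.56, 4.35 and 4.63 on wild-type arrays. Both ob/ob groups lay above wild type on every array and overlapped each other. Ob/ob vehicle exceeded wild type 1.62-fold (log2 change 0.70 ± 0.15, adjusted p = 0.0250). The call ends without ob/ob vehicle replicate 2 (0.63, adjusted p = 0.0846), ob/ob vehicle replicate 3 (0.67, adjusted p = 0.0802) or wild-type replicate 2 (0.62, adjusted p = 0.0895). It also ends with quantile normalization (0.56, adjusted p = 0.0696), with no filter on dim probes (0.70, adjusted p = 0.0666) and with replicate number as a block (0.70, adjusted p = 0.0544), 6 of 22 alternatives in all. Enarodustat gave -0.24 ± 0.15 against ob/ob vehicle (adjusted p = 0.766) and 0.46 ± 0.15 against wild type (adjusted p = 0.0854), the last of which was called on the mean of both probes (0.56, adjusted p = 0.0429) and with array weights (0.54, adjusted p = 0.0233). A further Cx3cl1 probe, whose mm9 coordinates chr8:97296213-97301245 run over far more than its 60 bases, gave 0.96 ± 0.17 for ob/ob vehicle (adjusted p = 0.0122 as its own feature) and 0.66 ± 0.17 for enarodustat (adjusted p = 0.0427), both over wild type.

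Itgb2 encodes CD18, the beta-2 chain that leukocyte integrins such as LFA-1 and Mac-1 have in common. It measured -0.32, -0.43 and -0.27 on enarodustat arrays, -0.081, -0.26 and -0.38 on ob/ob vehicle arrays, and -2.27, -2.30 and -2.48 on wild-type arrays. The ob/ob arrays formed a narrow band far above wild type. The rise was 4.32-fold in ob/ob vehicle glomeruli (log2 change 2.11 ± 0.12, adjusted p = 0.000174), and its p ranked 7 of 24150 features. In enarodustat glomeruli it was 4.03-fold (2.01 ± 0.12, adjusted p = 0.000495), both over wild type. With normexp and quantile normalization the enarodustat change was 1.34 and still called. Enarodustat and vehicle in ob/ob mice differed by -0.098 with a 95% interval of -0.37 to 0.18 (adjusted p = 0.856), the narrowest interval among the 8 genes.

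Itgal encodes CD11a, the alpha chain that joins Itgb2 to form LFA-1, a receptor of ICAM-1. It measured -2.42, -2.30 and -2.54 on enarodustat arrays, -2.45, -2.03 and -1.98 on ob/ob vehicle arrays, and -2.90, -3.16 and -3.09 on wild-type arrays. Ob/ob vehicle exceeded wild type 1.87-fold (log2 change 0.90 ± 0.15, adjusted p = 0.0111), and enarodustat exceeded it 1.55-fold (0.63 ± 0.15, adjusted p = 0.0368). Enarodustat against ob/ob vehicle gave -0.27 ± 0.15 (95% interval -0.62 to 0.080, adjusted p = 0.759). The overlapping pair of Itgal probes did not follow: over wild type they gave -0.24 ± 0.29 and -0.18 ± 0.17 for ob/ob vehicle (adjusted p = 0.675 and 0.570) and 0.033 ± 0.29 and -0.34 ± 0.17 for enarodustat (adjusted p = 0.959 and 0.234). On the mean of the 3 probes the change of ob/ob vehicle over wild type was 0.16 (adjusted p = 0.626), so the call rests on the RefSeq transcript's probe. It also ended with the proximal tubule markers as a covariate (0.89, adjusted p = 0.0585), and with normexp and quantile normalization the change was 0.42 (adjusted p = 0.0156). The enarodustat call over wild type was lost in 13 of 22 alternatives.

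Cd44 encodes the main receptor of hyaluronan, a matrix sugar, and is carried by leukocytes and by activated epithelial and mesenchymal cells. It measured -2.72, -2.51 and -3.08 on enarodustat arrays, -2.18, -1.95 and -1.82 on ob/ob vehicle arrays, and -3.66, -3.32 and -4.37 on wild-type arrays. The 3 groups did not overlap, with enarodustat between ob/ob vehicle and wild type. Ob/ob vehicle exceeded wild type 3.48-fold (log2 change 1.80 ± 0.27, adjusted p = 0.0066), and enarodustat exceeded it 2.02-fold (1.01 ± 0.27, adjusted p = 0.0478). Enarodustat against ob/ob vehicle gave -0.79 ± 0.27 (95% interval -1.40 to -0.18, unadjusted p = 0.0174, adjusted p = 0.709), and -0.43 with normexp and quantile normalization. The enarodustat call over wild type was lost in 17 of 22 alternatives, with changes of 0.33 to 1.25 over all 22. The upstream Cd44 probe printed above measured -2.94, -2.85 and -3.40 on enarodustat arrays, -3.07, -2.52 and -2.25 on ob/ob vehicle arrays, and -3.67, -2.17 and -4.05 on wild-type arrays, and gave 0.68 ± 0.45 for ob/ob vehicle over wild type (adjusted p = 0.401 as its own feature). On the mean of both probes the change was 1.24 (adjusted p = 0.0694), and with normexp and quantile normalization of the probe that stands for the gene it was 0.75 (adjusted p = 0.00274).

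**Figure D2:**
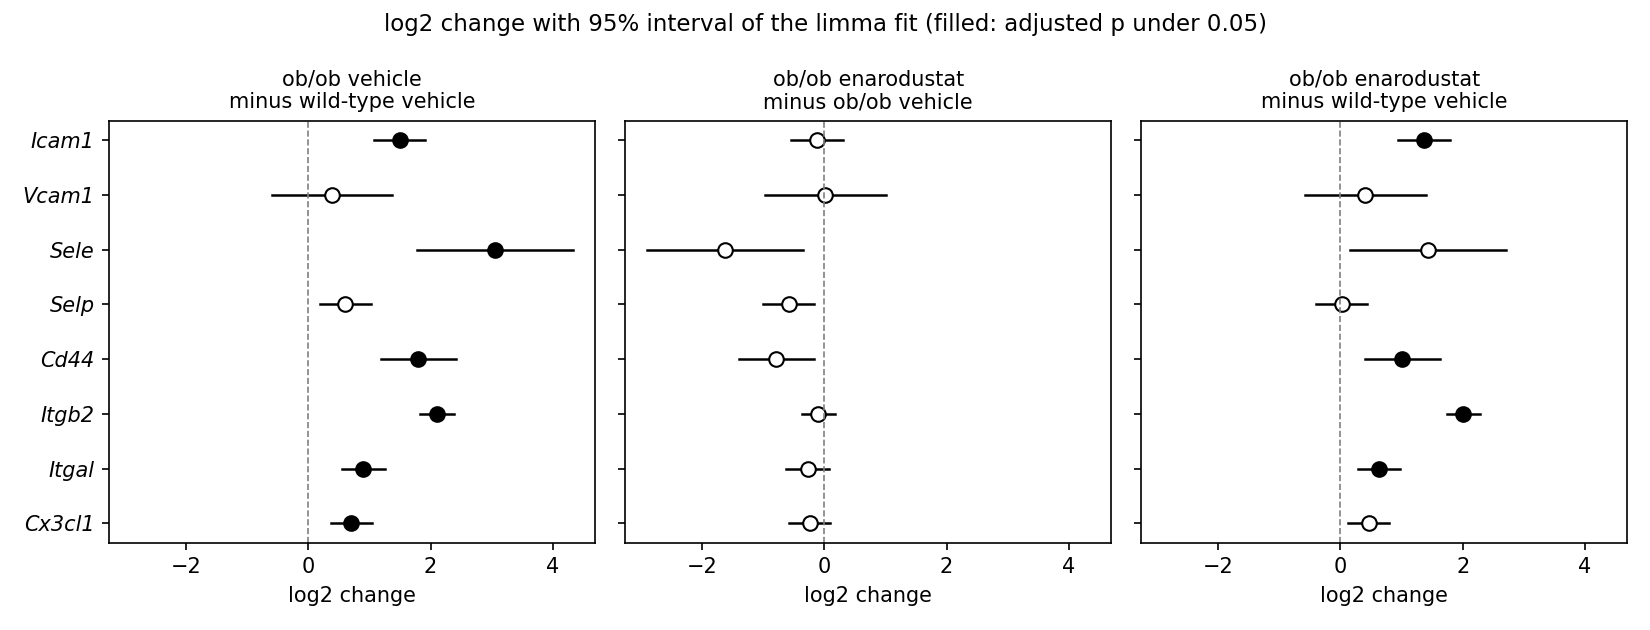
Log2 change (horizontal axis) of each gene with its 95% interval from the limma fit, in the 3 comparisons named above the panels. Filled points passed an adjusted p of 0.05: 6 genes for ob/ob vehicle over wild type, none for enarodustat against ob/ob vehicle and 4 for enarodustat over wild type.

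**Figure D3:**
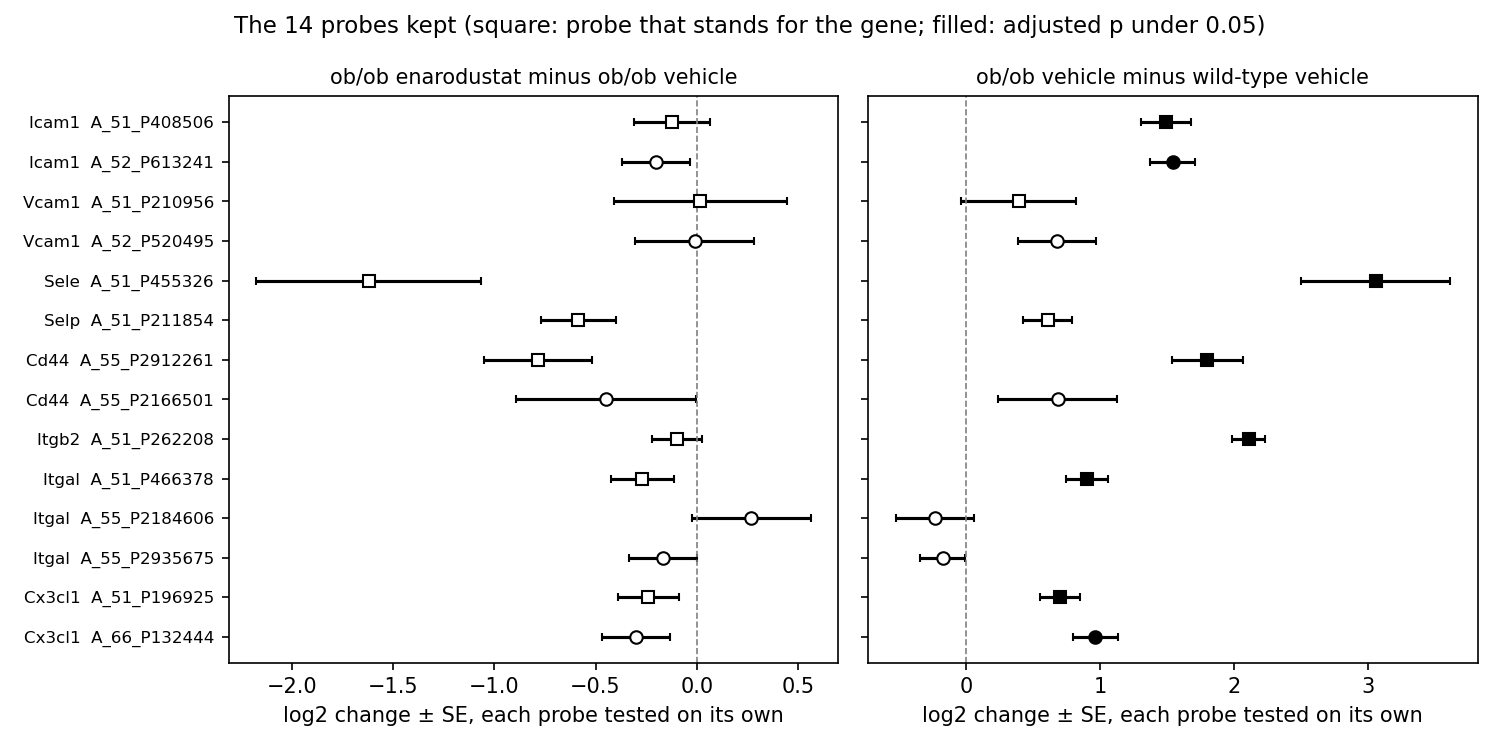
Log2 change ± SE (horizontal axis) of the 14 probes kept, each tested as its own feature, for enarodustat against ob/ob vehicle (left) and ob/ob vehicle against wild type (right). Squares are the probes that stand for their genes, and filled symbols passed an adjusted p of 0.05. Both Icam1 and both Cx3cl1 probes were called on the right, while the Itgal pair and the upstream Cd44 probe were not called.

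Groups that did not overlap give a view that does not depend on the fit. Ob/ob vehicle lay wholly above wild type for 7 of the 8 genes, Vcam1 excepted, where 17.8% of all features did so and 30.7% did not overlap in either direction. Enarodustat lay wholly below ob/ob vehicle for 3 (Sele, Selp and Cd44), where 9.48% of all features did so, and wholly above it for none, where 6.5% did (16% in either direction). Enarodustat lay wholly above wild type for 5 (Icam1, Cd44, Itgb2, Itgal and Cx3cl1), against 16.9% of all features (30.8% in either direction).

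Genes that work beside these 8 were grouped in 6 lists of 67 genes, of which 61 were tested. In ob/ob vehicle over wild type 15 rose and 2 fell, where 4.89% of all features were called higher and 2.66% lower, with a median log2 change of 0.34. In enarodustat over wild type 13 rose and 3 fell, where 6.1% of all features were called higher and 4.09% lower. In enarodustat against ob/ob vehicle none was called, with a median of -0.14. The lists were drawn up with earlier results of these data known, so their counts are a description.

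Among partners of the integrin chains, 5 of 7 listed subunits were tested and 1 rose, Itgax, the CD11c chain that pairs with Itgb2 (1.498 ± 0.27 in ob/ob vehicle over wild type, adjusted p = 0.0145, and 1.48 ± 0.27 in enarodustat over wild type, adjusted p = 0.0137). A further Itgax probe gave 0.013 and -0.18 in the same comparisons. Itgb1, the beta chain of VLA-4, had a change of 0.41 ± 0.13 (adjusted p = 0.0891), with its 3 probes between 0.068 and 0.62 and 1 of them called, and Itgb7 one of 0.30 ± 0.18 (adjusted p = 0.365), both for ob/ob vehicle over wild type. Itgam, the CD11b chain of Mac-1, is named here although outside the rule for naming genes and after its values were seen: its change was -0.17 ± 0.19 (adjusted p = 0.630), and both of its probes lay between -0.39 and -0.17.

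Among the 9 genes of integrin activation, 3 rose in ob/ob vehicle over wild type. Apbb1ip, the adaptor RIAM that brings talin to integrins, measured -0.76, -1.07 and -1.46 on enarodustat arrays, -0.92, -0.72 and -0.75 on ob/ob vehicle arrays, and -2.74, -2.60 and -3.57 on wild-type arrays. Its changes over wild type were 2.18 ± 0.27 in ob/ob vehicle (adjusted p = 0.00378) and 1.87 ± 0.27 in enarodustat (adjusted p = 0.00592). Fyb, the adaptor ADAP, gave 1.66 ± 0.26 in ob/ob vehicle (adjusted p = 0.00767) and 1.24 ± 0.26 in enarodustat (adjusted p = 0.0204). Rap1b, a small GTPase that switches integrins on, gave 0.54 ± 0.13 in ob/ob vehicle (adjusted p = 0.0400) and 0.33 ± 0.13 in enarodustat (adjusted p = 0.137). The other 6, among them Tln1, which encodes talin, had changes of 0.16 to 0.53 in ob/ob vehicle over wild type and were not called.

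Among 11 selectin ligands and enzymes that build their sugars, 3 rose and 1 fell in ob/ob vehicle over wild type. Selplg, the ligand PSGL-1 that leukocytes present to P-selectin, measured -0.75, -1.02 and -1.03 on enarodustat arrays, -0.96, -0.74 and -0.80 on ob/ob vehicle arrays, and -2.07, -2.28 and -2.79 on wild-type arrays. It rose by 1.55 ± 0.19 in ob/ob vehicle (adjusted p = 0.00360) and 1.45 ± 0.19 in enarodustat (adjusted p = 0.00433). The fucosyltransferase genes Fut7 (1.54 ± 0.22, adjusted p = 0.00604) and Fut4 (1.42 ± 0.22, adjusted p = 0.00787) also rose in ob/ob vehicle, though on wild-type arrays Fut7 was well above background on 2 of 3 and Fut4 on 1 of 3. St3gal6, a sialyltransferase, fell by 0.77 on the log2 scale in ob/ob vehicle (adjusted p = 0.0240) and by 0.87 in enarodustat (adjusted p = 0.0134). Its 4 probes lay between -0.77 and -0.53 in ob/ob vehicle, and 2 were called when each was tested on its own. In enarodustat they lay between -0.95 and -0.70, and all 4 were called. Podxl, a sialomucin that podocytes carry in large amounts, fell by 1.08 in enarodustat over wild type (adjusted p = 0.0128) and was not called in ob/ob vehicle (-0.75 ± 0.20, adjusted p = 0.0555), and 1 of its 2 probes, at -0.85 and -0.75, was called when each was tested on its own. Beside it, 5 of 6 podocyte markers, Podxl among them, fell in enarodustat over wild type, where 4.09% of all features were called lower, and 3 of 6 in ob/ob vehicle over wild type, where 2.66% were.

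Of 12 other endothelial adhesion and junction genes tested, 2 rose in ob/ob vehicle over wild type, Esam (0.88 ± 0.18, adjusted p = 0.0229) and Cd99 (0.83 ± 0.18, adjusted p = 0.0283), both of which hold endothelial borders and take part in the passage of leukocytes. Both also rose in enarodustat over wild type (0.83 ± 0.18 and 0.79 ± 0.18, adjusted p = 0.0250 and 0.0299). Cdh5, which encodes VE-cadherin, had 0.49 ± 0.13 in ob/ob vehicle (adjusted p = 0.0579). The other 9 had changes of -0.23 to 0.48.

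Of 9 tested partners of CD44 and CX3CL1, 2 rose and 1 fell in ob/ob vehicle over wild type. Cx3cr1, the receptor of Cx3cl1, measured -0.37, -0.39 and -0.79 on enarodustat arrays, 0.32, 0.15 and -0.24 on ob/ob vehicle arrays, and -2.35, -1.37 and -2.07 on wild-type arrays. It rose by 2.01 ± 0.26 in ob/ob vehicle (adjusted p = 0.00431) and by 1.41 ± 0.26 in enarodustat (adjusted p = 0.0135), and the 3 groups did not overlap. Enarodustat against ob/ob vehicle gave -0.59 ± 0.26 for Cx3cr1 (adjusted p = 0.709). Msn, which encodes moesin, rose by 0.66 ± 0.10 (adjusted p = 0.00779), with 2 of its 3 probes not called, and Ezr, which encodes ezrin, fell by 0.87 (adjusted p = 0.0238). Both proteins tie CD44 to actin. The hyaluronan synthase genes Has1, Has2 and Has3 were not above background on all arrays of any group.

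NF-kB stands upstream of Icam1, Vcam1 and Sele in activated endothelium. Of 15 NF-kB inducers, subunits and feedback genes, 4 rose in ob/ob vehicle over wild type. These were the receptor gene Il1r1 (1.44 ± 0.17, adjusted p = 0.00350) and the feedback genes Tnfaip3 (0.83 ± 0.17, adjusted p = 0.0209), Nfkbia (0.72 ± 0.16, adjusted p = 0.0347) and Nfkbiz (1.03 ± 0.25, adjusted p = 0.0428, with 1 of its 2 probes, at 0.64 and 1.03, called when each was tested on its own). In enarodustat over wild type Il1r1, Nfkbia and the transcription factor gene Irf1 rose (1.02 ± 0.17, 0.66 ± 0.16 and 0.98 ± 0.17, adjusted p = 0.00956, 0.0399 and 0.0113). Tnfrsf1b, named outside the rule and after its values were seen, was not called, but its 2 probes differed. They gave -0.086 and 2.03 in ob/ob vehicle and -0.024 and 1.59 in enarodustat, both over wild type. In each comparison 1 of the 2 was called when each was tested on its own. In enarodustat against ob/ob vehicle 6 of the 15 had an unadjusted p under 0.05, where 7% of all features did, and none was called. These 6, some of them named only after their values were seen, were Il1b (-1.28 ± 0.52), Il1r1 (-0.42 ± 0.17), Nfkbie (-0.38 ± 0.14), Relb (-0.36 ± 0.13), Nfkb2 (-0.31 ± 0.10) and, in the other direction, Irf1 (0.45 ± 0.17), each with an adjusted p of 0.709.

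**Figure D4:**
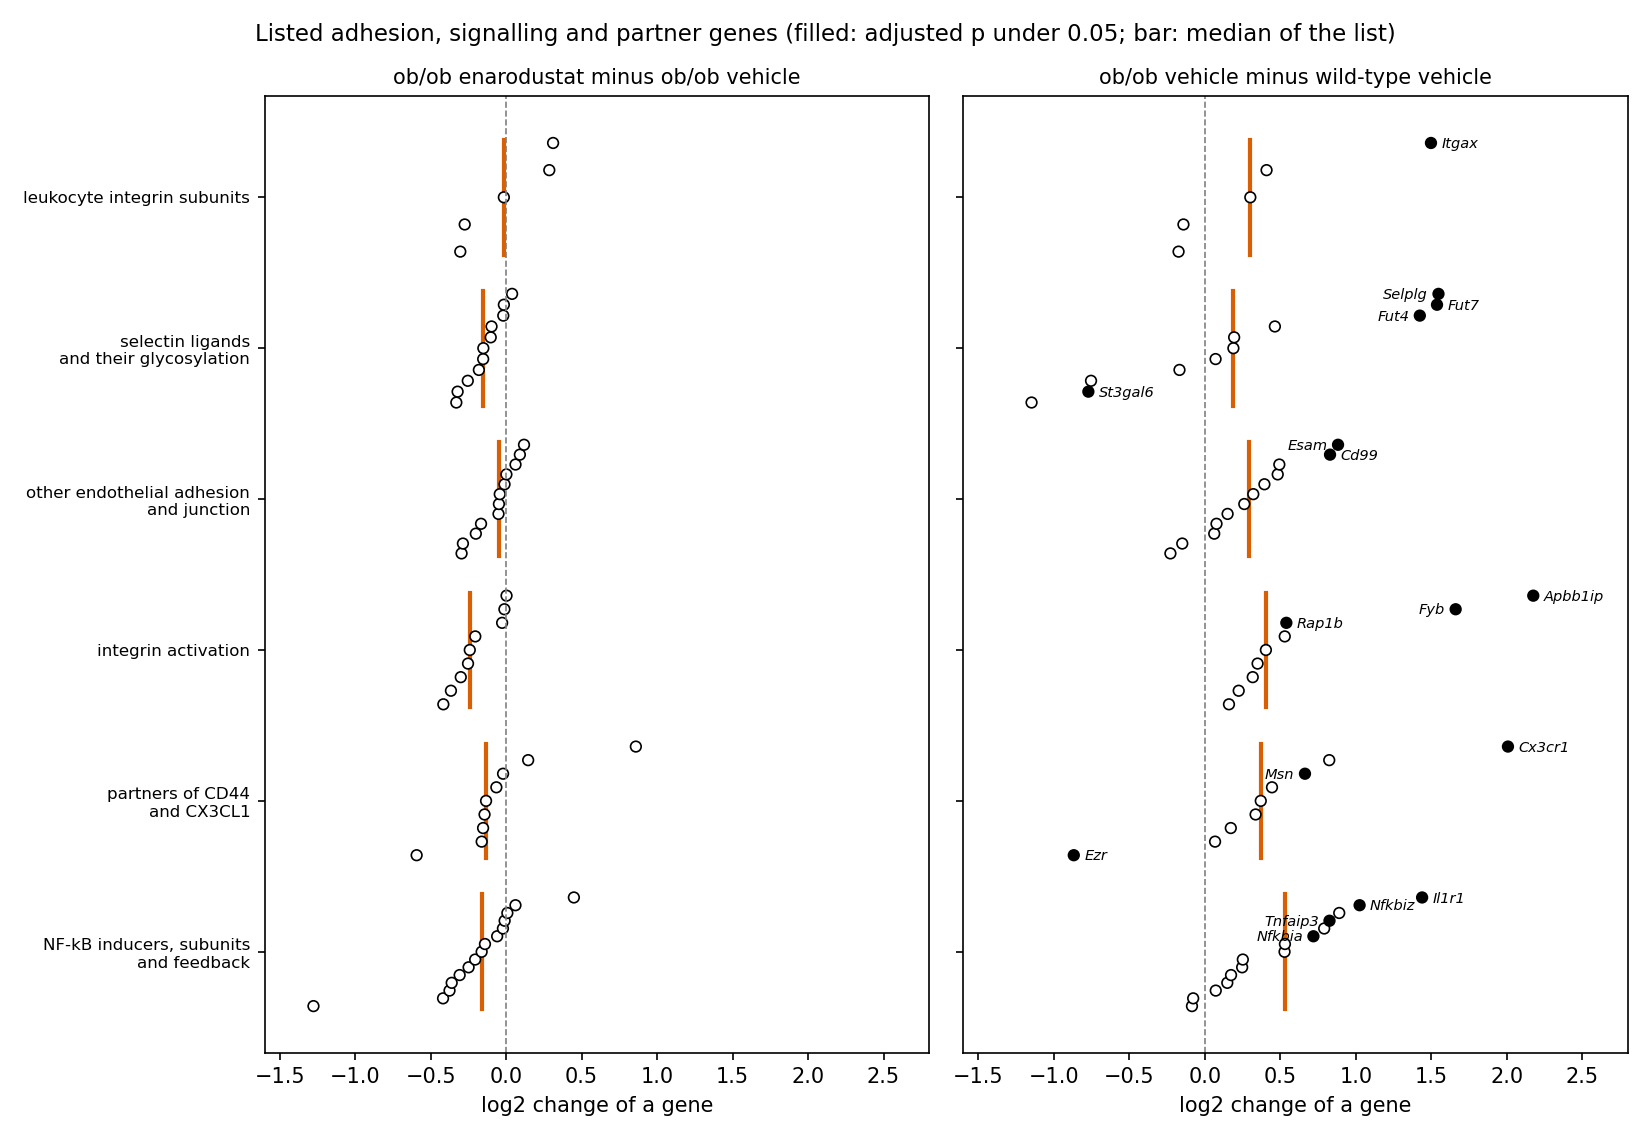
Log2 change (horizontal axis) of each tested gene of the 6 lists, for enarodustat against ob/ob vehicle (left) and ob/ob vehicle against wild type (right). Filled points passed an adjusted p of 0.05 and are named, and the coloured bar is the median of the list. Apbb1ip and Cx3cr1 lay farthest right, and no gene was called on the left.

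Markers of leukocytes were measured on the same arrays. In ob/ob vehicle over wild type 4 of 5 general leukocyte markers and 6 of 8 macrophage markers rose, where 4.89% of all features were called higher. Among them were Laptm5 (1.44 ± 0.15), Cd53 (1.35 ± 0.18), the macrophage surface receptor gene Adgre1 (2.82 ± 0.49), and Csf1r (0.91 ± 0.15, with its other probe at 0.064 and not called). The macrophage list summed to 18.9 to 30.1 times the 75th percentile on enarodustat arrays, 36.04 to 44.0 on ob/ob vehicle arrays and 10.2 to 16.1 on wild-type arrays. The gap between enarodustat and ob/ob vehicle rests on Lyz2, the lysozyme gene, which alone made up 8.35 to 14.4 on enarodustat arrays and 21.6 to 29.996 on ob/ob vehicle arrays. Without Lyz2, an alternative chosen after seeing the data, the other 7 summed to 10.6 to 15.8 on enarodustat arrays, 13.1 to 20.9 on ob/ob vehicle arrays and 6.03 to 7.01 on wild-type arrays, so that the ob/ob groups overlapped and both lay above wild type. The leukocyte list summed to 10.2 to 15.0 on enarodustat arrays, 14.1 to 15.2 on ob/ob vehicle arrays and 12.1 to 14.2 on wild-type arrays, where the probe that stands for Ptprc, which encodes CD45, dominates and was lower in ob/ob vehicle than in wild type (-0.39 ± 0.17, adjusted p = 0.200), although 2 of 4 Ptprc probes were called, with changes of up to 1.65. In the same comparison, with its share of 4.89% of all features called higher, 1 of 4 T cell markers rose (Lck, 1.12 ± 0.15, with its other probe at 0.40 and not called). So did 1 of 5 neutrophil markers (Ly6g, 1.53 ± 0.26) and none of 3 B cell markers. Neutrophil markers stood apart on ob/ob vehicle replicate 3, where they summed to 32.4, against 3.36 to 8.74 on enarodustat arrays, 3.70 and 4.23 on the other ob/ob vehicle arrays and 1.90 to 5.94 on wild-type arrays. That array also held the highest Icam1, Sele, Selp, Cd44 and Itgal values of its group, and the lowest Itgb2 and Vcam1 values. Without it the changes of ob/ob vehicle over wild type were 1.36 for Icam1 (adjusted p = 0.0137), 2.76 for Sele (adjusted p = 0.0495), 0.45 for Selp (adjusted p = 0.232) and 1.72 for Cd44 (adjusted p = 0.0259), and those of enarodustat against ob/ob vehicle were 0.0091, -1.32, -0.43 and -0.71 in the same order of genes, none called. Itgal kept its call in ob/ob vehicle over wild type whichever array was left out (highest adjusted p = 0.0462). Of the defining markers Cd3g, Cd79a and Ngp were not well above background on all arrays of any group. None of the 9 endothelial markers was called in ob/ob vehicle over wild type, with a median log2 change of 0.23. In enarodustat over wild type 1 rose (Egfl7, 0.47 ± 0.12, adjusted p = 0.0429), where 6.1% of all features were called higher. The part of cell numbers in the changes of Itgb2, Itgal, Cd44 and the endothelial genes was not tested.

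**Figure D5:**
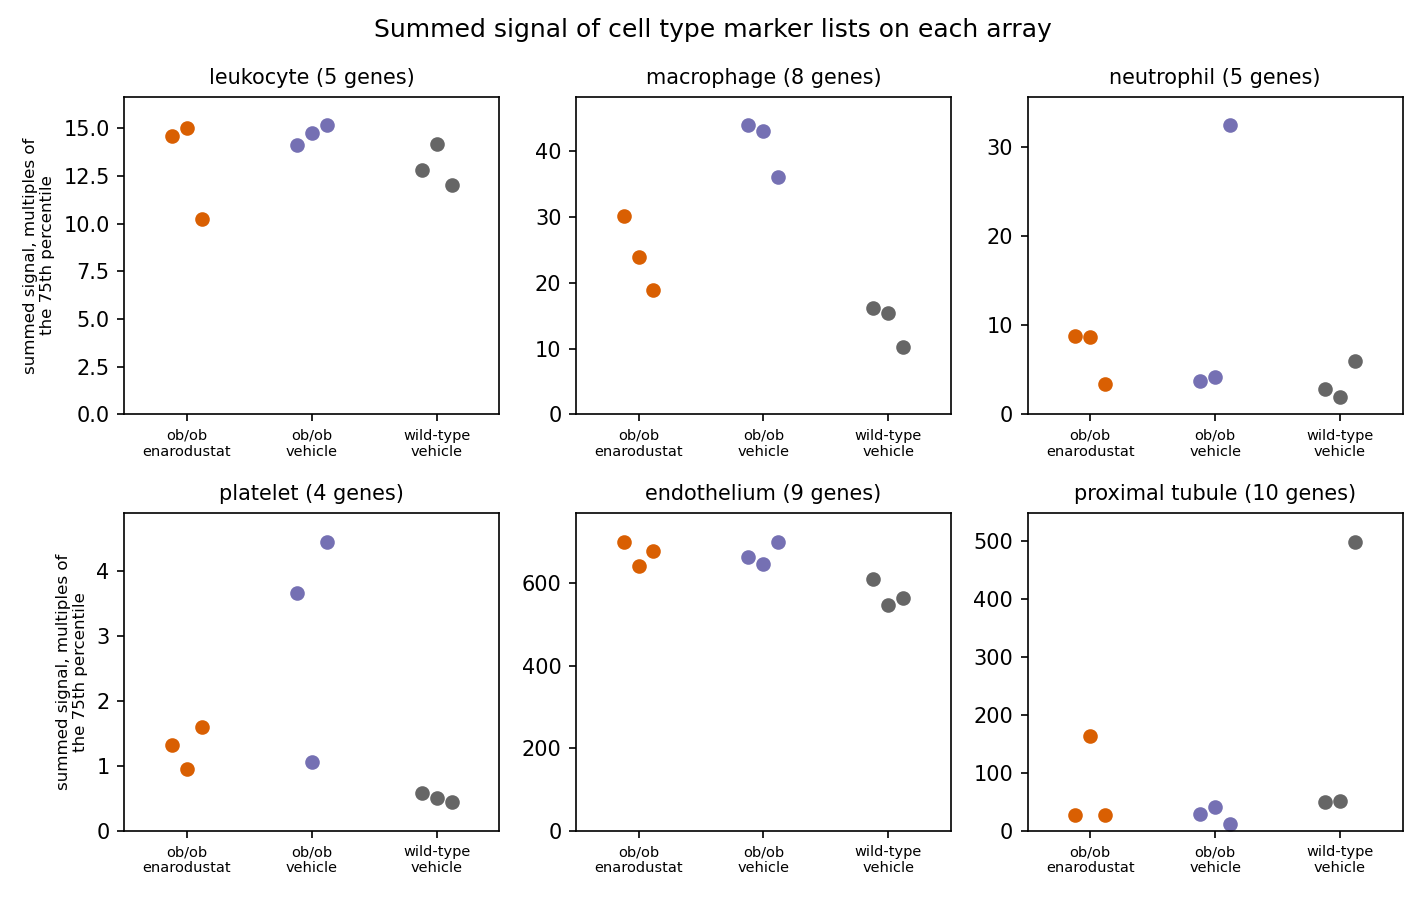
Summed signal of 6 marker lists on each array, in multiples of the array's 75th percentile (vertical axis, from 0), by group. Macrophage sums were highest on ob/ob vehicle arrays, with a gap to enarodustat arrays that rests on Lyz2, the neutrophil sum was highest on ob/ob vehicle replicate 3, endothelial sums were similar in both ob/ob groups and somewhat lower in wild type, and the tubular sum was highest on wild-type replicate 3.

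For each gene called in any comparison, the 3 named genes whose values followed it most closely over the 9 arrays were found from the root mean square difference of mean-centred log2 values, as a description of 9 arrays in which the group differences weigh heavily. For Icam1 these were Gng2, Thbs3 and Col14a1, with differences of 0.17 to 0.18 where Icam1 itself had an SD of 0.75 over the arrays. For Itgb2 they were Fbln7, Cdh13 and Lgals1 (0.17 to 0.21, SD 1.04), and for Cd44 Ncf4, Marcksl1 and its pseudogene Marcksl1-ps4 (0.21 to 0.23, SD 0.84). For Itgal they were Pcdhb17, Itga1 and Eml1 (0.087 to 0.11, SD 0.43), and for Cx3cl1 Srxn1, Rab32 and Plpp2 (0.10 to 0.12, SD 0.34). Sele had no close follower: the nearest were Loxl4, Serpina3g and Fpr2, at 0.65 to 0.73 against an SD of 1.498.

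Promoter sequences from RefSeq (GRCm38.p6) matched 5 of the 8 genes by symbol, Icam1, Sele, Selp, Cd44 and Cx3cl1. The window of 250 bases before to 50 bases after the start was searched on both strands for the letters GGNNTTTCC, which the kappa-B element resembles, and ACGTG, the core letters of a hypoxia response element. The motif GGNNTTTCC occurs in 5.82% of 32851 promoters of this length and ACGTG in 19.6%. Among the 5 genes, Icam1 held GGNNTTTCC at 2 places, from -153 to -145 and from -84 to -76 relative to the start, Selp held it once, from -14 to -6, and Cd44 held ACGTG once, from -29 to -25. The GGNNTTTCC matches were all on the minus strand, that of Cd44 was on the plus strand, and no match overlapped another. The bases before the start are printed for these 3 genes, because they hold a match, with the matches in capitals: Icam1 at chr9:21015690-21015939 (plus strand), Selp at chr1:164115014-164115263 (plus) and Cd44 at chr2:102901666-102901915 (minus). A match of letters is a description and not a binding site.
Icam1 promoter: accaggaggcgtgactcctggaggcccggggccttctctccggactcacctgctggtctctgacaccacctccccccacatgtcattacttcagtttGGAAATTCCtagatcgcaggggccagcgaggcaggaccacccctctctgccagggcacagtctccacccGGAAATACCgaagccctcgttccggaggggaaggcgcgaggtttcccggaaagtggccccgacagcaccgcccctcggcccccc
Selp promoter: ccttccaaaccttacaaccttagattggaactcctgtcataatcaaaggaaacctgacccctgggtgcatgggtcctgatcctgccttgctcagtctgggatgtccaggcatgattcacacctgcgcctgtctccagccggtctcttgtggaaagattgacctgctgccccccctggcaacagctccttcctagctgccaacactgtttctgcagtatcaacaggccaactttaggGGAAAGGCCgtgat
Cd44 promoter: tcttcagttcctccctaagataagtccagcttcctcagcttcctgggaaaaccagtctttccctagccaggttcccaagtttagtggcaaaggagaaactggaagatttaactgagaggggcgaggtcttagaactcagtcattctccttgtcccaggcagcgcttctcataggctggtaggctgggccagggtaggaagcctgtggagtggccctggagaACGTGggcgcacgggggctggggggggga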

How the data were processed

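The 9 deposited scanner files hold spot intensity on a linear scale, background-subtracted and detrended but not normalized between arrays by the authors, and per the file headers they come from Agilent Feature Extraction 11.5.1.1. The deposited value table holds log2 values of the authors, found from its values to be the log2 processed signal minus about the 75th percentile of each array, with no centring of genes and column medians of -3.10 to -2.93. Limma is named, with no role given, in the submitters' processing notes. Probe coordinates are mm9, per the file headers.

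Control spots (3671 of 62976) and outlier spots were left out. Values are log2 processed signal minus the array's 75th percentile. Probes standing well above background throughout 1 or more groups were kept (36671), and a gene is its kept probe with the highest mean. Names follow the RefSeq table of GRCm38.p6, used for names and promoters only. A 3-group linear model (lmFit, contrasts.fit, eBayes, limma 3.58.1, R 4.3.3, two-sided) was fitted to all 9 arrays and tested on simulated data. The figures used matplotlib 3.10.9 in Python 3.11.15. Of the arrays, 8 shared a slide and enarodustat replicate 3 was on another, so the slide as a block equals leaving that array out. Alternatives were other normalizations, background corrections, probe filters and probe rules, array weights, the 2 groups alone, a tubular covariate, blocks for slide and replicate number, and leaving out each array.

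The 8 genes, the lists and the motifs were chosen with earlier results of these data known. By the naming rule, all 8 genes, every gene of the 6 pathway lists called in a comparison, the 3 of each such list with the smallest p, and the 3 closest followers are named. Marker genes are named as examples, chosen after their values were seen.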

Additional observations from a re-analysis of the deposited data

How the results depend on the processing

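Icam1 and Itgb2 kept their calls over wild type in all 22 alternatives, in both ob/ob groups, and no gene of the 8 was called between enarodustat and ob/ob vehicle in any. The number called in ob/ob vehicle over wild type ran from 4 to 7, and from 4 to 6 when 1 array was left out. For enarodustat over wild type it was 2 with normexp and quantile normalization, without the probe filter, with the tubular covariate and with slide as a block, 5 with array weights, and 2 to 3 when 1 array was left out. The labels do not say whether same-numbered samples are paired. Correlations of their deviations from the group means ran from -0.31 to 0.27, which cannot settle it. With replicate number as a block the counts were 5 (without Cx3cl1, adjusted p = 0.0544) and 3 (without Itgal, adjusted p = 0.0767) over wild type, and 1408, 0 and 1955 over all features for ob/ob vehicle over wild type, enarodustat against ob/ob vehicle and enarodustat over wild type. Features called in ob/ob vehicle over wild type were 1004 with no filter, 4168 with array weights, 679 with the covariate and 912 to 1773 without 1 array. For enarodustat over wild type they were 1228, 4518 and, with slide as a block, 1367, and 1218 to 2163 without 1 array. Uncalled changes that reversed were Vcam1 at -0.044 with the array median for enarodustat against ob/ob vehicle, and Selp at -0.019 with normexp and -0.0052 with the covariate for enarodustat over wild type. Leaving out 1 array moved enarodustat against ob/ob vehicle from -0.23 to 0.040 for Icam1 and from -0.41 to 0.41 for Vcam1, enarodustat over wild type from -0.12 to 0.13 for Selp, and ob/ob vehicle over wild type from -0.0060 to 0.82 for Vcam1. Over the 22 alternatives the adjusted p for ob/ob vehicle over wild type ran from 0.00115 to 0.0558 for Sele, 0.00198 to 0.0694 for Cd44, 0.00199 to 0.626 for Itgal, 0.00285 to 0.0895 for Cx3cl1 and 0.0201 to 0.315 for Selp. For enarodustat over wild type it ran from 0.0384 to 0.295 for Cd44, 0.0127 to 0.741 for Itgal, 0.0233 to 0.221 for Cx3cl1 and 0.0271 to 0.326 for Sele. The cause was not tested.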
